A study of Mus musculus with 8 samples.

Results

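The run examined here is a stretch of 38 neighbouring genes on mouse chromosome 1, from Chi3l1 to Ddx59, out of 26667 genes counted in the series. It reaches from base 134182176 to base 136440158 of mm10, a length of 2.26 Mb. Its members were chosen by their position, after a search for called genes lying close together in the very comparison of genotypes given below. The differences between genotypes at the members, and which members the fit over all genes called, are therefore a description, printed without p-values, and nothing is supported with them. All 38 symbols were found in the count table, and Chi3l1 is the gene that GENCODE M21 lists as Chil1. From Chi3l1 to Ddx59 the count table holds 49 rows, and 11 of these are not members.

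The series holds poly(A) RNA-seq libraries of bone-marrow-derived macrophages, cells grown from whole marrow with the growth factor M-CSF at 30 ng/ml and 10% serum. There were 4 libraries from wild-type (WT) cells and 4 from Dnmt3a KO cells, all labelled C57BL/6 and collected at day 8 to 10. The KO is described no further in the labels, which give no Cre driver, age or sex, and they leave out whether each library had its own donor mouse. All differences are thus set against the spread between libraries, which may be technical. The names number the WT libraries 1 to 4 and the KO libraries 9 to 12, so any effect of that order cannot be told apart from genotype.

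Genes that neighbour each other on a chromosome can share regulatory sequence, chromatin domains or a start region without sharing a function, and this run mixes many kinds of gene. It holds troponins and other genes of striated muscle, receptors, phosphatases, motor proteins and ordinary housekeeping genes. Dnmt3a places methyl groups on cytosines that precede a guanine, the CpG pairs. Promoters rich in CpG pairs are usually free of methylation, while CpG-poor promoters are more often methylated in cells that do not use the gene.

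The sequences around the start sites of 6 members are shown first, because they display how unlike the promoters in the run are. Each is a RefSeq window of 300 bases in build GRCm38.p6, which is mm10, from 250 bases before the start to 50 bases after it, read 5′ to 3′ on the strand of the gene. Every CpG pair is in capitals. Ppfia4 and Rnpep were the members called higher in KO, Ipo9 and Ptpn7 were among those called lower, Arl8a hardly differed, and Mybph had 0 counts in every library.

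Ppfia4, chr1:134332879-134333178, minus strand: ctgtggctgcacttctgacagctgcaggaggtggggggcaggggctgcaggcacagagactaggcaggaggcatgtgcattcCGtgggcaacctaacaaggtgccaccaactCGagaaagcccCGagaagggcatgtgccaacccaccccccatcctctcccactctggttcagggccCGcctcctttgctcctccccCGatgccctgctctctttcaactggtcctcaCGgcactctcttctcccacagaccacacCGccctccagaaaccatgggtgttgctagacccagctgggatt

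Rnpep, chr1:135284035-135284334, minus strand: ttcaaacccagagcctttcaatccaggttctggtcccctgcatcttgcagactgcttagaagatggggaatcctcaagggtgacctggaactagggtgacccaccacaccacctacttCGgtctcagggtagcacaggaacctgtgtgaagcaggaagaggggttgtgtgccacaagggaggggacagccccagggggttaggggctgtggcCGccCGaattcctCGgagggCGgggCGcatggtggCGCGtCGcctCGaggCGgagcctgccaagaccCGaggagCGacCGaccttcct

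Ipo9, chr1:135430450-135430749, minus strand: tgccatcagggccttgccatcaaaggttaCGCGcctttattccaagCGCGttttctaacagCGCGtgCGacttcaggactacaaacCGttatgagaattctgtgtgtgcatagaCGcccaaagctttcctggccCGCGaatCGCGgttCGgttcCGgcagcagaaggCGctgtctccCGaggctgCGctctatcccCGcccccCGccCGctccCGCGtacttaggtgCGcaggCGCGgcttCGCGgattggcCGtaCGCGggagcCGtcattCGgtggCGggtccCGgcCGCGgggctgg

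Ptpn7, chr1:135132450-135132749, plus strand: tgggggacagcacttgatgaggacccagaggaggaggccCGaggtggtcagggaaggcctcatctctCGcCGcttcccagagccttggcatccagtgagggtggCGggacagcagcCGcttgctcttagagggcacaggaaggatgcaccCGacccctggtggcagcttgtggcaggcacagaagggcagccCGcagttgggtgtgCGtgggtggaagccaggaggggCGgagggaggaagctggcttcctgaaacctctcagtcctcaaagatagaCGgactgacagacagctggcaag

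Arl8a, chr1:135146584-135146883, plus strand: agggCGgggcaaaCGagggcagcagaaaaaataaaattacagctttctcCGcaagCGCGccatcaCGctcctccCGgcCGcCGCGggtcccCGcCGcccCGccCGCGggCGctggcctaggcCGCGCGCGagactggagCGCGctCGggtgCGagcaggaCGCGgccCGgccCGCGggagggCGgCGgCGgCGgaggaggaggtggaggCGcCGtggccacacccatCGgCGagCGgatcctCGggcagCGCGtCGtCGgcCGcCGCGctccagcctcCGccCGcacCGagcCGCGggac

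Mybph, chr1:134193198-134193497, plus strand: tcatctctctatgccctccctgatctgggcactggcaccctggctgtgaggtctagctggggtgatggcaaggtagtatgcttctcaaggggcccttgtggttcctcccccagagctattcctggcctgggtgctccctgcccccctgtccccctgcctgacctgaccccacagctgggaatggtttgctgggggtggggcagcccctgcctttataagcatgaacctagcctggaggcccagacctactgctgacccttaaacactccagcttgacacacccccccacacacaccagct

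These windows held 7 CpG pairs at Ppfia4, 14 at Rnpep, 37 at Ipo9, 10 at Ptpn7, 51 at Arl8a and 0 at Mybph. The Ptpn7 window also holds the start of Ptprv, which runs the other way: Ptpn7 starts at base 251 of the printed sequence and Ptprv, in GENCODE, at base 145. The 2 starts lie 106 bases apart, the closest divergent pair in the run. RefSeq lets the 2 genes overlap by 738 bases. The library kit does not mark strand, so reads from that overlap could be given to either gene.

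The libraries held 12614006 to 28502631 counts each. Dnmt3a itself ranged from 150 to 170 CPM (counts relative to the scaled library size) in WT and from 29.1 to 37.6 CPM in KO (log2 fold change -2.22 ± 0.11, SE; edgeR adjusted p 1.08e-06), so that every library matched its label. Values of single libraries are given below in the order of replicates 1 to 4. Macrophage markers were abundant in both genotypes, Csf1r at 2109 and 2063 CPM, and 0 of 15 tested markers passed the edgeR test (5 had an unadjusted p under 0.05, and DESeq2 called 2). WT replicate 1 stood apart, with a median correlation of 0.9592 to the other libraries, against 0.9814 to 0.9852 for the rest. Markers of neutrophils moved with genotype: all 16 tested genes of that list had positive log2 fold changes, 7 rose, and the summed level of the 20 listed was 367 to 554 CPM in WT and 944 to 1125 CPM in KO. Their part in the values of the run was not tested. In such bulk libraries, fewer cells of a type and less RNA per cell cannot be told apart.

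Over all genes counted, 201 of 12507 tested genes, 1.61%, were called in either direction (edgeR quasi-likelihood test, adjusted p under 0.05), 1.22% as higher and 0.392% as lower in KO. Of the 38 members, 23 had enough counts to be tested and 15 did not. Among the 23, 2 were called higher, 6 lower, and 15 were not called. The call helped to choose the run, so nothing is read from this share. In the same way, 3 of the 23 had all KO libraries above all WT libraries and 9 had them all below, against 5.13% and 4.28% of all tested genes. The median log2 fold change of the 23 was -0.17, beside -0.02 over all tested genes, and 17 were negative and 6 positive.

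**Figure D1:**
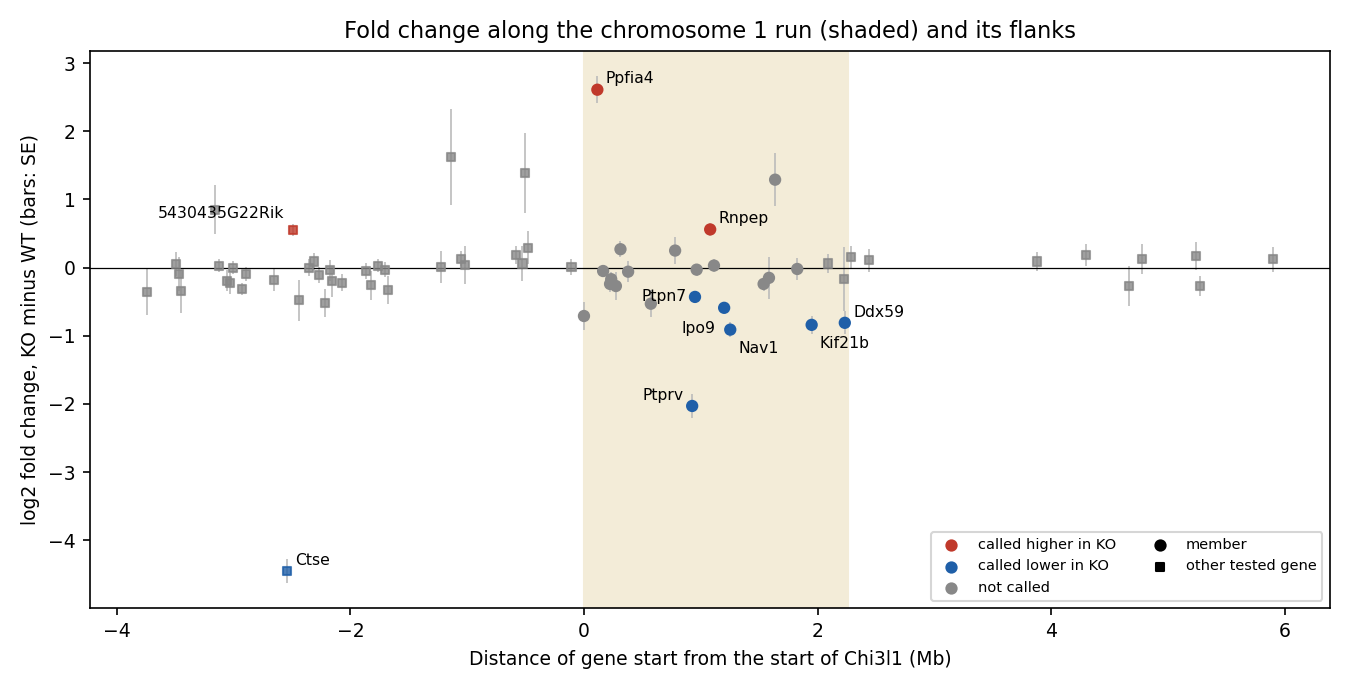
Log2 fold change (KO minus WT, bars SE) of each tested gene against the distance of its start from that of Chi3l1 in Mb; circles are members inside the shaded run, squares are other tested genes, red and blue mark genes called higher and lower. The called members, from Ppfia4 at 2.61 to Ptprv at -2.03, lie among members near 0, and the tested genes on either side of the run stay near 0 apart from Ctse at -4.45 and a few others.

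Called members were interspersed with uncalled ones along the chromosome. Ppfia4, the second gene in order among those tested, was followed by 8 tested members that were not called, from Tmem183a to Ube2t. Ptprv and Ptpn7 came next as a pair, then Arl8a and Rnpep, then Timm17a, and then Ipo9 and Nav1. Unlike Ptprv and Ptpn7, both Ipo9 and Nav1 lie on the minus strand, with 4.08 kb between the start of Ipo9 and the end of Nav1. Kif21b and Ddx59 closed the run on the right. Arl8a, which was not called, starts only 1.51 kb after the end of Ptpn7.

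Calls are counted below by group of members, beside 1.22% called higher and 0.392% called lower over all tested genes. The run was chosen on calls, so nothing is read from the share of any group. Among genes of vesicles, synapses and transport, 1 of 5 tested members was higher and 2 were lower. Ppfia4 encodes liprin-alpha-4, a scaffold protein of synapses and cell adhesions. It stood at 1.65, 1.21, 1.79 and 1.31 CPM in the WT libraries and at 8.65, 7.98, 9.14 and 10.6 CPM in the KO libraries. The groups lay far apart, the lowest KO library being above every WT library. The mean went from 1.49 ± 0.274 to 9.09 ± 1.11 CPM (SD, n = 4 each), 6.11-fold, with a log2 fold change of 2.61 ± 0.20 (SE). That was the largest log2 fold change among the tested members in either direction, and it rests on 113 counts in WT and 581 in KO.

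Nav1 encodes neuron navigator 1, which binds the growing ends of microtubules. It was at 157, 156, 165 and 163 CPM in the WT libraries and 94.1, 92.4, 82.8 and 71.2 CPM in the KO libraries. The WT libraries were nearly alike and all KO libraries lay well below them, KO replicate 4 lowest. The mean was 160 ± 4.50 in WT and 85.1 ± 10.5 CPM in KO, 1.88-fold lower, with a log2 fold change of -0.91 ± 0.11 (SE).

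Kif21b, a kinesin that moves along microtubules, stood at 82.5, 85.5, 64.8 and 62.9 CPM in the WT libraries and at 44.3, 38.2, 45.4 and 37.5 CPM in the KO libraries. The WT libraries fell into a higher and a lower pair, and both pairs were above every KO library. Its log2 fold change was -0.84 ± 0.13 (SE), 1.79-fold lower in KO. Rabif, which encodes a chaperone of Rab GTPases, was at 30.7 ± 3.64 CPM in WT against 37.1 ± 1.37 CPM in KO. It was not called although its KO libraries, at 36.4 to 39.2 CPM, all exceeded the WT libraries, at 25.8 to 34.5 CPM. Arl8a encodes a small GTPase that links lysosomes to kinesins. It was at 180 ± 5.53 CPM in WT against 176 ± 9.91 CPM in KO, with overlapping groups and a log2 fold change of -0.03 ± 0.09 (SE). Syt2, a synaptic calcium sensor, had 12 counts in WT and 6 in KO and was not tested.

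Among receptors and signalling genes, 2 of 4 tested members were lower and 0 were higher. Ptprv is a phosphatase-like gene known from mouse osteoblasts and testis, and RefSeq annotates it as a transcribed pseudogene. It stood at 9.09, 10.3, 13.3 and 9.47 CPM in the WT libraries and at 2.63, 2.48, 2.76 and 2.45 CPM in the KO libraries. All KO libraries were far below WT and close to each other. The mean went from 10.5 ± 1.90 to 2.58 ± 0.143 CPM (SD, n = 4 each), 4.08-fold lower, on 802 WT and 164 KO counts, and the log2 fold change was -2.03 ± 0.18 (SE). In GENCODE, 345 exonic bases of Ptprv are shared with the overlapping gene Gm10535.

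Ptpn7, its divergent neighbour, encodes the haematopoietic phosphatase that acts on the MAP kinases ERK and p38. Ptpn7 was at 248, 247, 231 and 221 CPM in the WT libraries and at 161, 171, 183 and 188 CPM in the KO libraries. The groups did not overlap, but the gap between the lowest WT and the highest KO library was small, relative to the level, next to that of Ptprv. The mean went from 237 ± 13.2 to 176 ± 12 CPM, and the log2 fold change was -0.43 ± 0.09 (SE). This call was lost with a replicate block and whenever WT replicate 2, 3 or 4 or any KO replicate was left out, while the log2 fold change stayed between -0.46 and -0.39 over all 16 alternatives. Ptpn7 is known to be abundant in lymphocytes. The T-cell receptor genes Cd3e, Cd3d and Cd3g had 8, 3 and 0 counts over the WT libraries and 11, 4 and 9 over the KO libraries. The summed level of 8 B-cell markers was 5.15 to 7.06 CPM in WT and 6.47 to 12.2 CPM in KO, and that of 7 T-cell markers 0.763 to 3.16 and 8.35 to 24.4 CPM, with Cd4 averaging 1.11 and 13.3 CPM. Of the tested markers, 1 of 2 for T cells (Cd4, edgeR adjusted p 0.00623) and 1 of 4 for B cells (Cd22, 1.11 to 3.49 CPM, edgeR adjusted p 0.0139) rose and 0 fell. The part of lymphocytes in the values of Ptpn7 was not tested.

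Adipor1, a receptor for the fat-tissue hormone adiponectin, was at 155 ± 14.0 CPM in WT against 137 ± 9.0 CPM in KO, with overlapping groups. Phlda3, a p53-induced inhibitor of the kinase Akt, varied more between libraries of the same genotype than between genotypes. It was at 58.2, 45.3, 22.4 and 28.2 CPM in the WT libraries and at 55.6, 27.5, 30.7 and 25.2 CPM in the KO libraries. The replicates numbered 1 were the highest of both genotypes, and the log2 fold change was -0.15 ± 0.31 (SE). The adenosine receptor gene Adora1, the R-spondin receptor gene Lgr6 and the orphan receptor genes Gpr37l1 and Gpr25 were below the filter, with 3, 4, 0 and 33 counts in WT and 4, 13, 4 and 26 in KO.

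**Figure D2:**
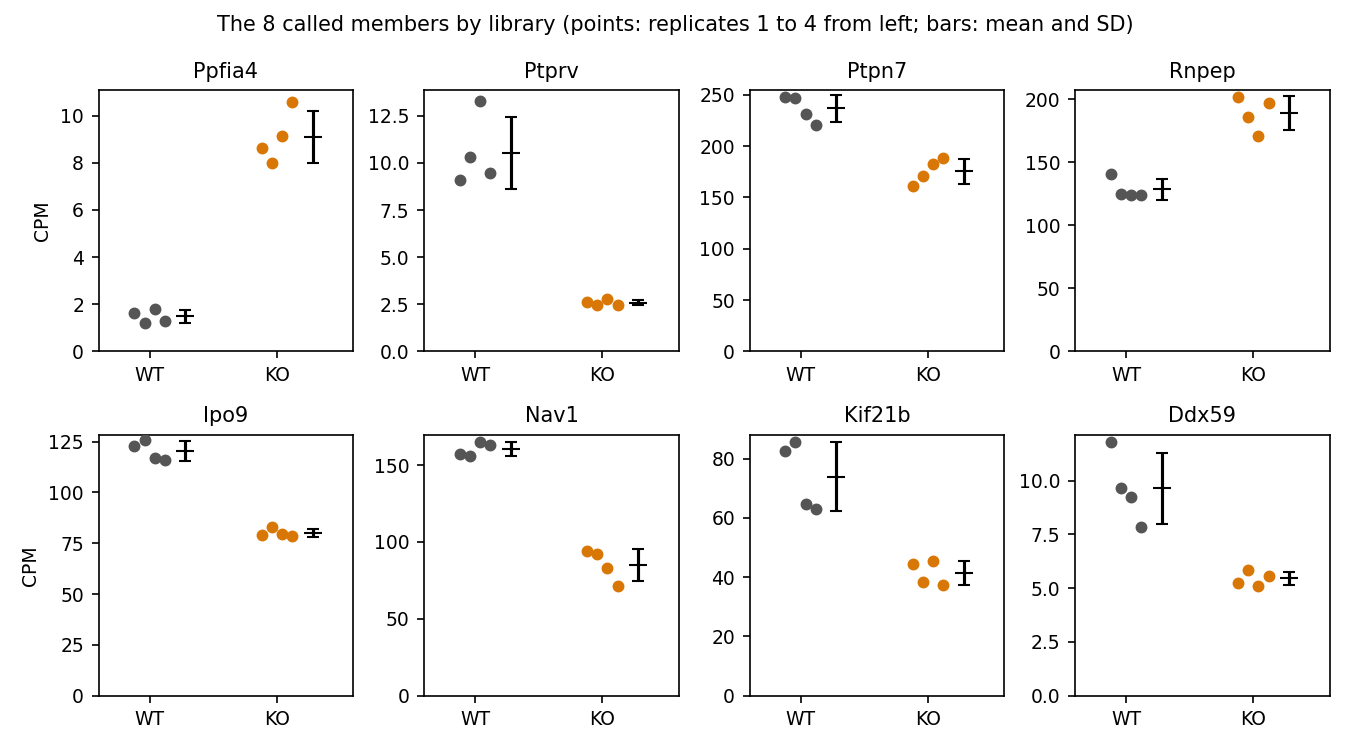
CPM of the 8 called members in each library, WT in grey and KO in orange, with the mean and SD at the right of each group and every vertical axis from 0. In all 8 panels the WT and KO libraries do not overlap, with Ppfia4 and Rnpep higher in KO and the other 6 lower.

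Among genes of the nucleus, chromatin, ubiquitin and RNA, 2 of 5 tested members were lower. Ipo9 encodes importin 9, which carries histones and actin into the nucleus. It stood at 123, 126, 117 and 116 CPM in the WT libraries and at 79.1, 82.8, 79.5 and 78.5 CPM in the KO libraries. Both groups were tight and clearly apart. The mean went from 120 ± 4.92 to 80.0 ± 1.93 CPM, 1.51-fold lower, and the log2 fold change was -0.59 ± 0.08 (SE).

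Ddx59 encodes an RNA helicase of the DEAD-box family. It was at 11.8, 9.66, 9.24 and 7.85 CPM in the WT libraries and at 5.26, 5.84, 5.12 and 5.58 CPM in the KO libraries. Every KO library lay below every WT library, WT replicate 1 being the highest. The log2 fold change was -0.81 ± 0.17 (SE), on 720 WT and 353 KO counts. Its first 249 bases overlap 9230116N13Rik on the other strand, 153 of them in exons of both, and that gene was at 0.832 ± 0.365 CPM in WT against 0.712 ± 0.384 CPM in KO. The call of Ddx59 was lost with limma-voom, with a replicate block, and without WT replicate 2 or 3 or any KO replicate, with log2 fold changes from -0.91 to -0.69 over the 16 alternatives.

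The other tested genes of this group were not called. Kdm5b, which removes the active mark H3K4 methylation from histones, was at 29.5 ± 5.72 CPM in WT against 28.3 ± 3.05 CPM in KO. Klhl12 directs a ubiquitin ligase to the coat of secretory vesicles, and it was at 10.9 ± 1.33 and 9.01 ± 2.81 CPM. Ube2t, the ubiquitin-conjugating enzyme of the Fanconi repair pathway, was at 4.78 ± 0.845 and 5.67 ± 0.946 CPM. All 3 had overlapping groups. Elf3, an epithelial transcription factor gene, had 2 counts in WT and 4 in KO.

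Among membrane, mitochondrial and enzyme genes, 1 of 5 tested members was higher and 0 were lower. Rnpep encodes aminopeptidase B, which trims basic residues from peptide ends. It stood at 141, 125, 124 and 124 CPM in the WT libraries and at 202, 186, 171 and 197 CPM in the KO libraries. All KO libraries were above WT replicate 1, which itself stood above the other WT libraries. The mean went from 129 ± 8.13 to 189 ± 13.8 CPM, 1.47-fold higher, and the log2 fold change was 0.56 ± 0.09 (SE). Its call was lost when WT replicate 2, or replicate 1 or 4 of KO, was left out, with log2 fold changes from 0.52 to 0.61 over the 16 alternatives.

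Its neighbour Timm17a, a subunit of the inner-membrane import channel of mitochondria, was at 60.6 ± 5.98 CPM in WT against 62.0 ± 3.91 CPM in KO. Cyb5r1, a cytochrome b5 reductase, was at 77.8 ± 9.46 and 65.9 ± 7.88 CPM. Tmem183a was at 81.2 ± 4.39 and 78.7 ± 3.86 CPM, and Tmem9, which encodes a lysosomal membrane protein, at 12.4 ± 2.35 and 12.2 ± 1.42 CPM. The WT and KO libraries of these 4 genes overlapped. Shisa4 had 12 counts in WT and 18 in KO.

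Genes of muscle contraction made up the largest group of members, 9, of which 2 could be tested and 0 were called. Ppp1r12b, a regulatory subunit of myosin phosphatase, was at 7.71 ± 1.70 CPM in WT against 5.34 ± 0.765 CPM in KO. Csrp1, a LIM protein of the actin cytoskeleton, was at 142 ± 11.5 and 121 ± 9.16 CPM. In both, all KO libraries lay below all WT libraries, at 4.51 to 6.13 CPM against 6.38 to 9.98 CPM for Ppp1r12b and at 113 to 132 CPM against 133 to 158 CPM for Csrp1, although neither was called. Mybph, which encodes myosin-binding protein H, had 0 counts in all libraries, which allows a level of up to 0.0391 CPM over the WT and 0.0465 CPM over the KO libraries, 3 counts of each total, for counting error only. In GENCODE, Mybph shares 1162 exonic bases with Adora1 on the other strand. The kit does not mark strand, so this bound may not cover reads from those bases. Myog, the transcription factor gene of muscle differentiation, had 0 counts in WT and 2 in KO. The troponin genes Tnni1 and Tnnt2 had 7 and 19 counts in WT and 6 and 12 in KO, of which WT replicate 1 held 7 and 15. Lmod1, Igfn1 and the calcium channel gene Cacna1s had 2 to 7 counts per genotype.

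Of 40 striated muscle genes elsewhere in the genome 10 were tested, and edgeR and DESeq2 called 0, with 0 at an unadjusted p under 0.05. Their summed level was 27.8 to 46.3 CPM in WT and 31.4 to 34.7 CPM in KO. Of 11 smooth muscle markers 4 were tested, and again edgeR and DESeq2 called 0, with 0 at an unadjusted p under 0.05.

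The last group holds secreted and epithelial genes, of which 2 of 3 were tested and 0 called. Chi3l1, the first gene of the run, encodes a secreted chitinase-like protein made by macrophages and neutrophils among others. It was at 9.03, 13.9, 9.47 and 14.8 CPM in the WT libraries and at 7.82, 5.74, 8.12 and 7.46 CPM in the KO libraries. All KO libraries were below all WT libraries, but the WT libraries were spread widely. The log2 fold change was -0.71 ± 0.20 (SE), and the gene was called only with DESeq2 and without WT replicate 1. The summed level of the neutrophil markers, given above, was higher in KO, and its part in the values of Chi3l1 was not tested.

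Lad1, a gene of the epithelial basement membrane zone, was at 0.763, 1.02, 2.26 and 1.18 CPM in the WT libraries and at 2.56, 1.80, 4.49 and 4.04 CPM in the KO libraries. WT replicate 3 exceeded KO replicate 2, so the groups overlapped, and the log2 fold change of 1.29 ± 0.39 (SE) came with a call by DESeq2 alone. Pkp1, a desmosome gene, had 3 counts in WT and 10 in KO. Of 16 epithelial markers only 2 could be tested, and the junction gene Jup rose from 5.72 to 10.8 CPM (edgeR adjusted p 0.0454), a call lost in 8 of 16 alternatives. Of the 16, only 3 had 0 counts in every library, Krt5, Krt7 and Krt19, and Epcam had 5 counts in WT and 20 in KO. The summed level of the epithelial list was 5.47 to 12.4 CPM in WT and 12.2 to 20.9 CPM in KO, and its part in the values of Lad1 was not tested.

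**Figure D3:**
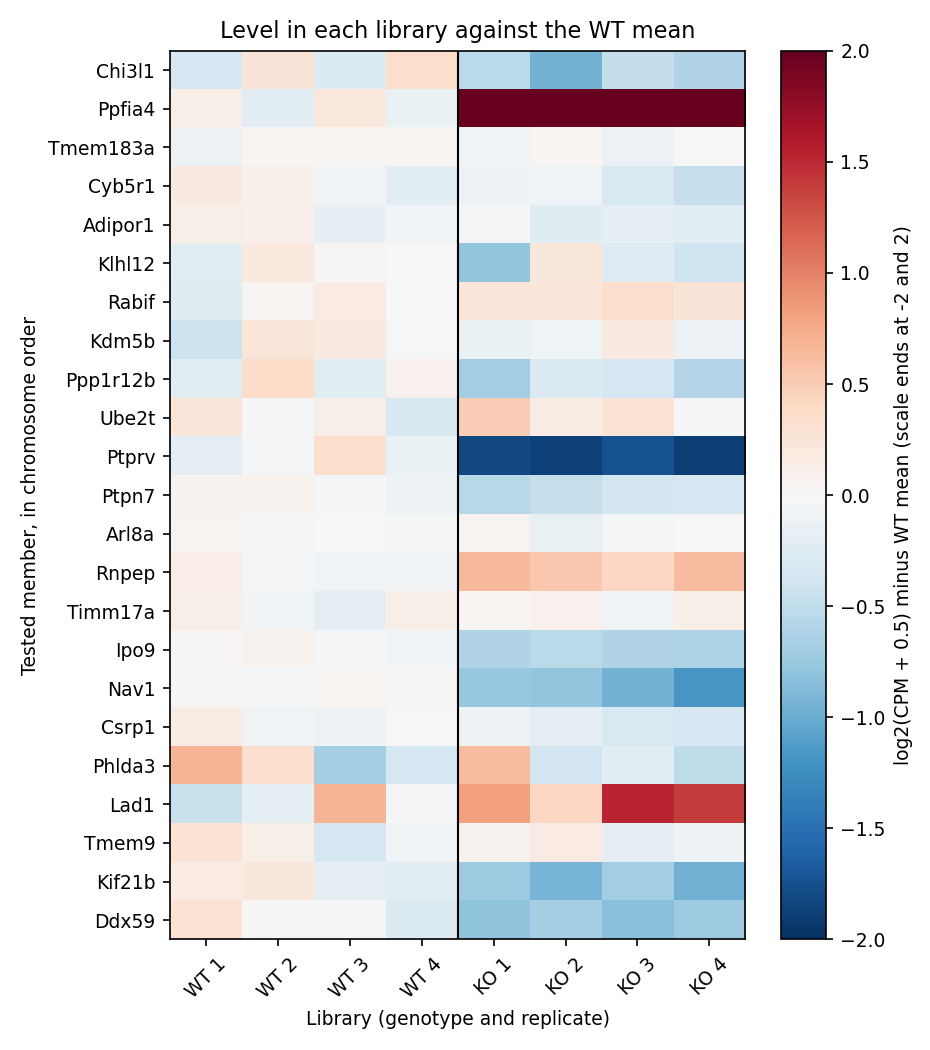
Level of the 23 tested members, in chromosome order, in each of the 8 libraries, as log2(CPM + 0.5) minus the WT mean of the gene. Ppfia4 and Rnpep are above the WT mean in all 4 KO libraries, Ptprv, Ptpn7, Ipo9, Nav1, Kif21b and Ddx59 are below it in all 4, and Phlda3 varies within both genotypes.

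The tested members differed widely in level. Per kilobase of exon, Arl8a was the most abundant in WT at 78.3 ± 2.41 CPM per kb (SD, n = 4), closely followed by Csrp1 at 72.8 ± 5.88. Ptpn7, at 38.8 ± 2.16, and Adipor1, at 30.8 ± 2.78 CPM per kb, came next. At the low end stood Ppfia4 at 0.227 ± 0.0417 and Lad1 at 0.384 ± 0.195 CPM per kb. Per kb, the member with the largest difference was also the least abundant tested member in WT. By CPM, the WT mean of Lad1 was lower, at 1.30 against 1.49 CPM for Ppfia4. Ptprv, at 1.51 ± 0.272 CPM per kb in WT, was the lowest of the 6 members called lower. The spread between libraries of the same genotype, as a median SD of log2(CPM + 0.5), was 0.17 over the tested members and 0.23 over all tested genes.

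The nearest tested genes on both sides of the run were not called. Of 45 other tested genes starting within 5 Mb on either side 2 were called, 4.44%, and their median absolute log2 fold change was 0.17, beside 0.27 for the 23 members and 0.15 for all tested genes. The run was chosen by a search for called genes in this same comparison. Nothing is therefore read from the difference between members and flanks, or from where the calls end. Directly before Chi3l1, the growth-arrest gene Btg2 was at 37.2 ± 4.52 CPM in WT against 37.4 ± 2.29 CPM in KO. Before it came Atp2b4, a calcium pump gene, at 86.3 ± 28.4 and 106 ± 25.5 CPM, and Lax1 at 0.323 and 0.928 CPM. Directly after Ddx59, the mitotic kinesin gene Kif14 was at 16.6 ± 3.81 and 18.5 ± 0.710 CPM. Zfp281 followed at 48.9 ± 11.5 and 52.8 ± 5.35 CPM and Ptprc, which encodes the leukocyte antigen CD45, at 610 ± 112 and 648 ± 72.4 CPM. None of these 6 passed the edgeR test, with adjusted p from 0.360 for Lax1 to 0.986 for Btg2. Camsap2, which lies inside the run but is not a member, was at 70.7 ± 13.8 and 73.7 ± 3.20 CPM (edgeR adjusted p 0.892).

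The called genes of the flanks were neighbours of each other, 2.47 to 2.51 Mb before the run. Ctse, the cathepsin E gene, was at 63.2 to 76.9 CPM in WT and 2.24 to 3.53 CPM in KO, at a log2 fold change of -4.45 ± 0.17 (SE) and an edgeR adjusted p of 1.51e-07. 5430435G22Rik rose from 296 ± 24.4 to 433 ± 12.7 CPM (log2 fold change 0.55 ± 0.09, SE; edgeR adjusted p 0.0119). No KO library of either gene came within the WT range. Whether WT and KO cells carry the same chromosome 1 sequence, here and in the run, was not tested. None of the 22 tested genes between this pair and Chi3l1 was called, and none of the 9 after Ddx59 (edgeR; 3 and 0 had an unadjusted p under 0.05, and DESeq2 called 3 flanking genes in all).

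Relatives of the members elsewhere in the genome played no part in choosing the run and could be tested. Of 58 tested relatives 1 rose and 0 fell, 1.72%, close to the 1.61% of all genes, and their median log2 fold change was 0.01. The gene that rose was Shisa3, a relative of the untested member Shisa4, from 0.445, 0.508, 0.417 and 0.449 CPM in the WT libraries to 1.35, 1.75, 2.29 and 3.76 CPM in the KO libraries. Every KO library was above the WT range, the log2 fold change was 2.32 ± 0.38 (SE), and the edgeR adjusted p of 0.0108 stayed under the threshold in all 16 alternatives. Shisa3 passed the filter, and the stricter one of 1 CPM in 4 libraries, only through its KO libraries. Its call is thus not independent of the filter, and nothing is supported with it.

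Relatives of the called members did not pass the edgeR test. Nav2 came closest: it was at 72.6, 75.1, 77.2 and 73.1 CPM in the WT libraries and at 48.6, 55.0, 63.0 and 50.6 CPM in the KO libraries. Like Nav1 it was below the WT range in all KO libraries, and its log2 fold change was -0.46 ± 0.10 (SE), at an edgeR adjusted p of 0.0539. The called members were chosen on this contrast, so nothing is read from a difference between them and their relatives. The liprins Ppfia1 and Ppfia3 had log2 fold changes of -0.03 ± 0.08 and -0.14 ± 0.39 (SE). Ppfibp1 and Ppfibp2 had 0.21 ± 0.12 and 0.40 ± 0.18. The importins Ipo4, Ipo8 and Ipo11 had -0.18, -0.01 and 0.11, while Ipo7 was at 175 ± 43.3 CPM in WT against 257 ± 19.6 CPM in KO, and its log2 fold change of 0.56 ± 0.17 had an edgeR adjusted p of 0.158. Rnpepl1 and Lta4h, relatives of Rnpep, had -0.14 and 0.10, the phosphatase genes Ptprj and Ptpro 0.05 and -0.09, and the helicase genes Ddx23, Ddx41 and Ddx46 -0.17, -0.27 and -0.07. The relatives listed for Ptpn7 and Kif21b were below the filter.

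**Figure D4:**
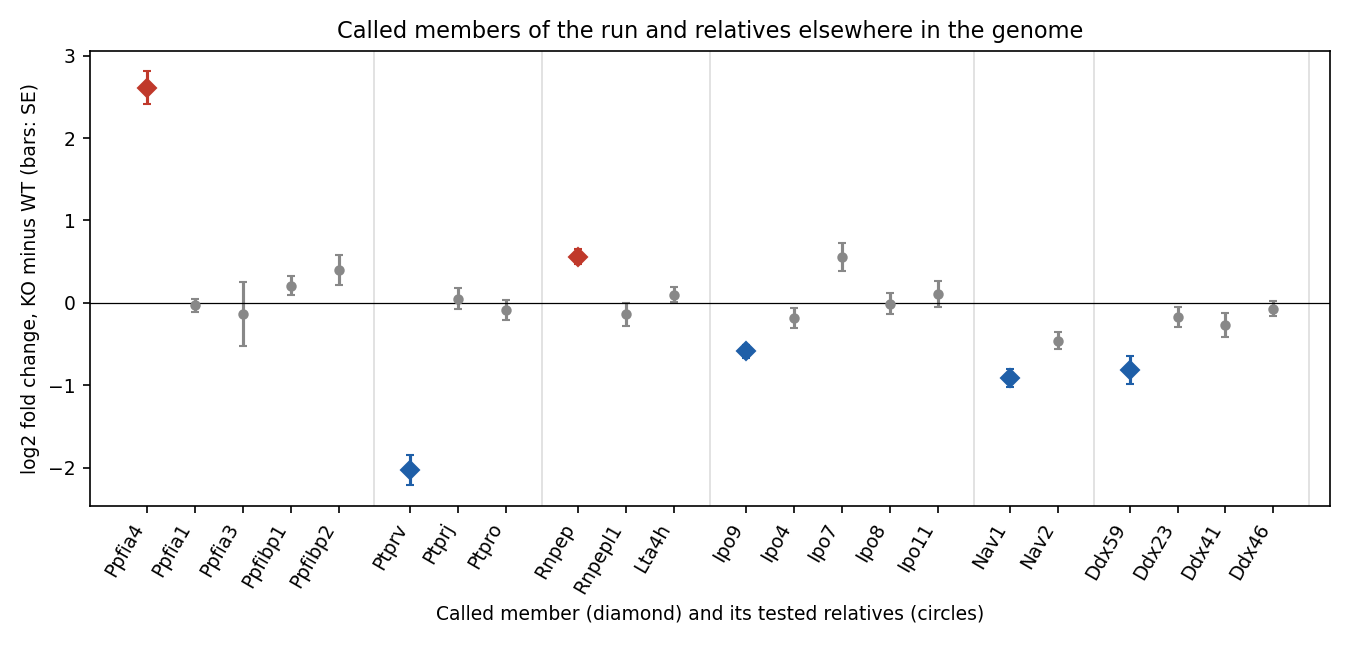
Log2 fold change (KO minus WT, bars SE) of 6 called members (diamonds) and their tested relatives elsewhere in the genome (circles); red and blue are called, grey is not. The members range from 2.61 for Ppfia4 to -2.03 for Ptprv, and the relatives from -0.46 for Nav2 to 0.56 for Ipo7. The members were chosen on this contrast, so nothing is read from the difference between them and their relatives.

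Pathways in which single members act were looked at with lists of genes outside the run. Of 27 tested p53 targets, the pathway of Phlda3, 1 rose, the autophagy gene Dram1, from 47.1 ± 2.44 to 72.1 ± 7.27 CPM (1.53-fold, edgeR adjusted p 0.0119, lost without KO replicate 4), and 0 fell. The median log2 fold change of that list was 0.08, and 20 of the 27 were positive. At an unadjusted p under 0.05 stood 5 of them, and DESeq2 called 1. In the Fanconi repair pathway of Ube2t edgeR called 0 of 23 tested genes (5 had an unadjusted p under 0.05, and DESeq2 called 2). Of the 23, 4 had positive log2 fold changes, and the median was -0.17. The summed level of this list was 471 to 498 CPM in WT and 414 to 442 CPM in KO. The lists for adiponectin signalling (14 tested genes, median -0.07), H3K4 methylation (16 genes, -0.12), lysosome positioning (17 genes, 0.05) and mitochondrial import (19 genes, -0.07) had 0 genes called by edgeR or DESeq2. At an unadjusted p under 0.05 stood 1, 4, 0 and 0 of their genes, in this order. Positive log2 fold changes were found for 3, 3, 11 and 6 of their tested genes. The summed level of the H3K4 list was 1430 to 1569 CPM in WT and 1269 to 1393 CPM in KO. The sums of adiponectin signalling, lysosome positioning and mitochondrial import overlapped between genotypes. These sums were not tested. Adipor2, the second adiponectin receptor gene, was at 124 ± 21.5 CPM in WT against 135 ± 8.96 CPM in KO (edgeR adjusted p 0.755).

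Promoter windows were found for 35 of the 38 members, among them 6 of the 8 called ones. The count of CpG pairs in the window had a median of 16 over these members, from 0 at Mybph to 51 at Arl8a, beside 7 over all 32851 windows and 20 over the windows of tested genes. It was 18 over the 21 members that passed the filter and 8.5 over the 14 that did not. The members called higher had 7 and 14 pairs, and the 4 called lower with a window had 10 at Ptpn7, 18 at Ddx59, 24 at Nav1 and 37 at Ipo9. Those ranges lie within that of the 15 uncalled members, 3 to 51. The Nav1 window belongs to a RefSeq start 21940 bases inside the GENCODE gene. That of Tnni1, a member below the filter, belongs to a start 19987 bases inside its gene.

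Short motifs were sought on both strands of the same windows, and a match is a match of letters alone. TATAAA was present at 2 members, Mybph and Nav1, or 5.71%, beside 13.6% of all windows and 7.02% of those of tested genes. GAGGAA, a core that ETS factors such as PU.1 can bind, was present at 9 members, 25.7%, beside 28.3% and 27.3%, and Ptpn7, Rnpep and Nav1 were among the called members that had it. CCAAT was present at 12 members, 34.3%, beside 37.4% and 37.9%. No motif of the 3 contains another.

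**Figure D5:**
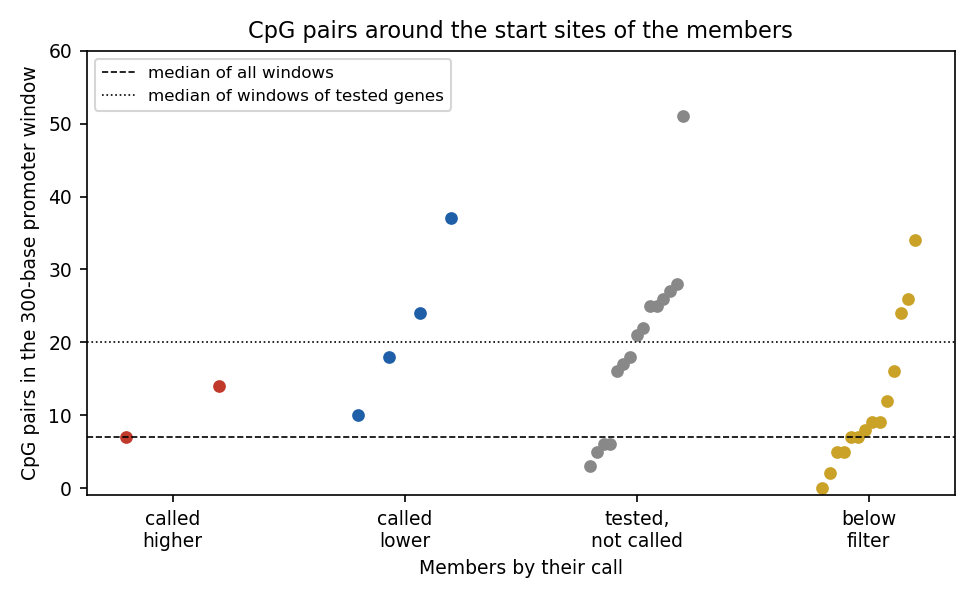
CpG pairs in the 300-base promoter window of 35 members, 1 point per member, grouped by call; the dashed line is the median of all windows (7) and the dotted line that of windows of tested genes (20). Members below the filter, with a median of 8.5, hold mostly few pairs, and the called members, from 7 to 37, lie within the range of the uncalled ones.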

How the data were processed

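Reads were trimmed with Trimmomatic 0.39, aligned with STAR 2.7.0a to mm10 and counted with featureCounts, as the submitters' processing notes have it. Their settings, and the gene models counted, were not given in the sources used here. Raw counts per gene symbol were used as the authors deposited them, and 0 columns were left unmapped. A deposited table of the authors' own comparison holds p-values, a test score, log2 fold changes with SE, and a mean signal over all libraries.

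Genes were kept by filterByExpr (minimum count 10), normalised by TMM and compared by the quasi-likelihood test of edgeR 4.0.16 in R 4.3.3, with Benjamini-Hochberg adjustment over all 12507 genes and a threshold of 0.05. CPM uses the scaled library sizes. An SE is the log2 fold change over the square root of F. Positions and exon lengths came from GENCODE M21, which placed 97.4% of tested genes, and promoter windows from RefSeq. The alternatives tried were scaling by RLE, by the upper quartile or not at all, no filter or 1 CPM in 4 libraries, DESeq2 1.42.0, limma-voom (limma 3.58.1), a replicate block, and each library left out.

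The members and lists were chosen with earlier results of these data known. All members are accounted for, and each library is given for those called or among the 8 largest absolute log2 fold changes. Outside the run, Dnmt3a, the 3 nearest tested genes and the called genes on each side, called list genes and relatives of called members are named. For neutrophil, T-cell and B-cell markers the calls are summarised. Camsap2 and the genes used to describe lists were picked after their values were seen.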

Additional observations from a re-analysis of the deposited data

Results flagged for a closer look

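In 8 of the 80 groups of 4 libraries examined, 40 genes in both genotypes, 1 library lay far from the other 3, where chance gives about 1 in 20. Among members these were Tmem183a in WT replicate 1 (74.6 CPM, the others from 83.4 to 83.5), Rabif in KO replicate 3 (39.2 CPM, next 36.6), Kdm5b in KO replicate 3 (32.8 CPM, next 27.3) and Rnpep in WT replicate 1 (141 CPM, next 125). Outside the run they were Zfp281 in WT replicate 1 (31.7 CPM, next 53.8), Ptprc in WT replicate 1 (443 CPM, next 653), Mmp8 in KO replicate 4 (174 CPM, next 140) and Dram1 in KO replicate 3 (61.3 CPM, next 74.4). Of the 8, 4 were in WT replicate 1, the library that stood apart over all genes.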

How the results depend on the processing

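The calls of Ppfia4, Ptprv, Ipo9, Nav1 and Kif21b were kept in all 16 alternatives, and those of Ptpn7, Rnpep and Ddx59 were lost in some, as given above. No called member changed sign. With DESeq2 the members called were 3 higher and 7 lower, with a replicate block 2 and 4, and without WT replicate 1 2 and 7. With single libraries left out the higher ones numbered 1 to 2 and the lower ones 4 to 7. The 201 calls over all genes became 399 with no filter, 551 with DESeq2, 260 with a replicate block, and 103 to 484 with single libraries left out (103 without WT replicate 2, 484 without WT replicate 1). The median log2 fold change of tested members, -0.17, was -0.04 with no filter, where more low members enter, and -0.26 to -0.14 with single libraries left out. Called relatives numbered 2 with no filter, DESeq2 or the replicate block, and 1 to 3 with single libraries left out. Called genes of the pathway lists, a count added after the data were seen, numbered 3 with DESeq2 and 0 to 3 with single libraries left out. Where not stated, the cause was not tested.

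Deviations of same-numbered libraries of the genotypes correlated at 0.253, 0.284, 0.0658 and -0.0191. In 2 of 4 pairs both libraries correlated best with their own number. Whether same-numbered libraries were handled together was not tested. The main fit did not use the numbers, and the replicate block did. Genes with few counts, such as Ppfia4 in WT and Lad1, are imprecise, and the 15 members below the filter, at 0 to 59 counts in all, allow no comparison.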

Other observations

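Of the tested genes of chromosome 1 other than the members and the flanks of 5 Mb, 16 of 649 were called, 2.47%, beside 1.61% of all tested genes. The 649 include Camsap2 and 9230116N13Rik, which lie inside the run and were not called. Of the 717 tested genes with a position on that chromosome 17 were called higher and 9 lower.

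The authors' deposited table lists 30 of the 38 members and gives 10 of them an adjusted p under 0.05, beside 3.15% of all its 16108 genes. These include all 8 members called here, and the other two are Chi3l1 and Lad1; as the members were chosen on this contrast, nothing is read from it. All 201 genes called here have the opposite sign of log2 fold change in that table, which therefore reads as WT over KO.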
